A study of Bos taurus with 23 samples.

Results

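The genes described here are 186 of the 18897 in the count table, chosen because their transcripts were lower in bovine endometrium cultured with a conceptus and about level with recombinant interferon tau. CPM, a gene's count divided by its library's total and scaled to a common depth, chose them. A member had a mean Control level of at least 1 CPM, an IFNT mean between 0.8 and 1.25 times the Control mean, and AI and IVF means at most 0.75 and 0.85 times both the Control and the IFNT means. Each AI library also had to lie below the Control and the IFNT library of its own uterus. Of the 18897 genes, 13451 met the first condition, 10687 of those also met the second, 671 the AI limit, 366 the IVF limit as well, and 186 the pairwise condition. All 186 passed the filter on low counts used for the model fits.

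The samples were 23 explants of Bos taurus intercaruncular endometrium, the gland-bearing lining between the sites of placental attachment. All explants were punched from uteri in the mid-luteal phase, rested in RPMI medium and then cultured for 6 h. Control explants received medium alone (n = 6), and the medium of IFNT explants held 100 ng per mL of the recombinant ovine protein (n = 6). AI explants shared the well with a Day 15 conceptus grown from an in vivo-derived blastocyst (n = 4), and IVF explants with a Day 15 conceptus grown from an in vitro-produced blastocyst (n = 7). There were 3 females and 1 male among the AI conceptuses, against 2 females and 5 males among the IVF conceptuses. The titles give the 4 AI conceptuses 1 further code and let 2 pairs of IVF conceptuses share one, without saying what it stands for. Conceptuses with a common code may not be independent. Libraries are named here by group and uterus number. Uterus 7 contributed an IVF explant alone.

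The trophectoderm of the elongating ruminant conceptus secretes interferon tau, a type I interferon. It acts on the endometrium through the interferon receptor and JAK-STAT signalling, induces interferon-stimulated genes and restrains the oxytocin-driven release of prostaglandin F2 alpha that would end the corpus luteum. The conceptus also releases prostaglandins and many proteins, and the study compared conceptus with interferon tau to separate responses that depend on interferon tau from those that do not. The count table gives Ensembl identifiers only. The reference table of gene symbols matched 0 of them, so the members are described by their values, their functions are not given, and the tissue was not checked against marker genes.

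Library totals ranged from 19461678 to 32152427 counts in Control, 24416081 to 31216891 in IFNT, 27987043 to 31789316 in AI and 23505348 to 36730378 in IVF. Control 1 was the shallowest library. The number of genes with at least 10 reads lay between 14177 and 14682. Among the 13451 genes with a Control mean of at least 1 CPM, the median ratio of means to Control was 0.943 with IFNT, 0.923 with AI and 0.916 with IVF. A typical gene was thus lower in CPM in all 3 treated groups, against which a member's ratio is read. Reads of genes almost silent without a conceptus were few: 5 genes had at most 1 read in each Control and IFNT library and 10 or more in a conceptus library, and they summed to 9.09 CPM in IVF 3, 0.734 CPM in IVF 4 and at most 0.069 CPM in the other conceptus libraries.

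The members were of low to middling abundance. Their Control means ran from 1.10 to 374 CPM, with a median of 12.8 and quartiles of 5.86 and 30.1 CPM. Only 8 members exceeded 100 CPM, against 1912 of the 13451 genes, and 8 members were under 2 CPM, against 932. Between 2 and 5 CPM lay 34 members, against 1614 genes. Between 20 and 50 CPM lay 40 members, against 3200 genes. The median ratio of AI to Control means was 0.573 among the members under 2 CPM and 0.701 among those over 100 CPM, while the median ratio of IVF to Control means was 0.682 and 0.753. The AI medians of the bins between lay from 0.623 to 0.678, in no strict order of abundance.

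Together the members took a small and variable share of the transcripts. In Control libraries they held 0.508% ± 0.081 (SD, n = 6) of all counts, with 0.633% in Control 1, 0.567% in Control 2, 0.456% in Control 3, 0.495% in Control 4, 0.495% in Control 5 and 0.405% in Control 10. In IFNT libraries they held 0.493% ± 0.042 (SD, n = 6), and the 6 libraries lay between 0.432% and 0.551%, inside the Control range. In AI libraries the share was 0.334% ± 0.016 (SD, n = 4), from 0.315% in AI 4 to 0.349% in AI 2. All AI libraries lay below all Control and IFNT libraries, which the pairwise condition favours. In IVF libraries the share was 0.369% ± 0.056 (SD, n = 7). IVF 10 was lowest at 0.29%, IVF 5 was highest at 0.466%, and IVF 5 and IVF 1 (0.409%) overlapped the Control range. In an explant, fewer cells of a type and less RNA per cell cannot be told apart.

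**Figure D1:**
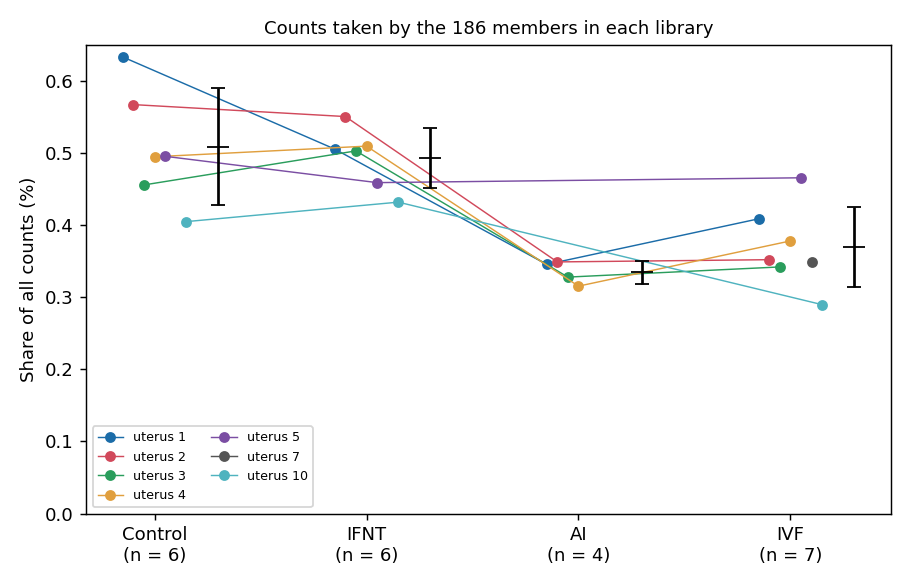
Share of all counts taken by the 186 members, in percent, for each library by group; coloured lines join explants of 1 uterus, and black marks give the group mean ± SD. The 4 AI libraries lie between 0.315% and 0.349%, below every Control and IFNT library, and IVF 5, at 0.466%, is close to the 0.495% of Control 5.

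The decline of most members was modest. The median ratio of means to Control was 0.651 with AI (quartiles 0.584 and 0.688) and 0.732 with IVF (quartiles 0.671 and 0.783). With IFNT it was 0.975, within the range that the rule allows. A level at or below 0.5 times Control was reached by 19 members with AI and by 3 with IVF. The IVF ratio was above the AI ratio in 169 of the 186 members and below it in 17. The rule set a stricter limit for AI, which favours that order. These values chose the members and describe the choice.

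**Figure D2:**
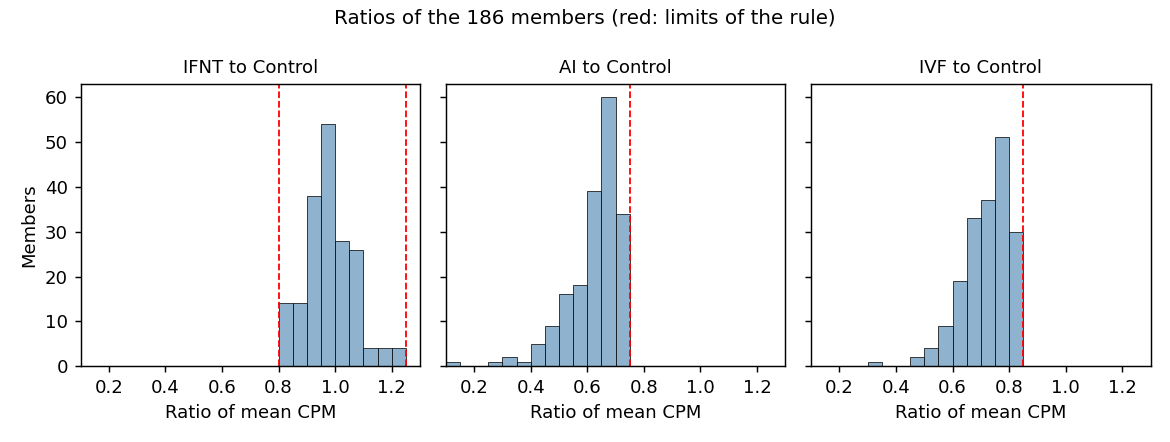
Histograms of the ratio of mean CPM to the Control mean for the 186 members, with IFNT, AI and IVF in turn; the vertical axis counts members and red dashed lines mark the limits of the rule. AI ratios have a median of 0.651 and are at or below 0.7 in 152 members, and IVF ratios have a median of 0.732 and are at or below 0.8 in 156.

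No gap separated the members from the genes just outside the rule. The 3 members nearest inside the AI limit had AI means of 0.747, 0.749 and 0.749 times the lower of the Control and IFNT means. The 3 genes nearest outside, which met every other condition, stood at 0.753 in each case. In all, 189 genes met every other condition and missed the AI limit. The group also depended on how libraries were scaled. With library sizes scaled by TMM, which sets the typical gene level across libraries, the rule chose 93 genes, 90 of them among the 186. With median-ratio size factors it chose 110, with 105 among the 186. The median AI to Control ratio of the 186 was then 0.70 with TMM and 0.693 with median-ratio factors, and the median IVF ratio was 0.794 and 0.785. The median IFNT ratio moved from 0.975 to 1.02 and 1.01, so its side of 1 is set by the scaling.

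Among members with a Control mean of at least 5 CPM, ENSBTAG00000009459 had the lowest AI to Control ratio, 0.363. Its level was 152 CPM in Control 1 and 38.3, 19.2, 21.4, 18.5 and 27.3 CPM in Control 2, 3, 4, 5 and 10. With IFNT it was 112 CPM in uterus 1 and between 14.5 and 50.05 CPM in the other 5. With AI it was 7.46, 26.1, 13.3 and 20.1 CPM in uteri 1 to 4, and with IVF it had a median of 23.5 CPM, from 16.9 to 92.2 CPM. Uterus 1 stood far above the others in Control, IFNT and IVF and was lowest in AI, and the groups overlapped. Its fitted log2 fold change was -0.81 ± 0.49 (SE, edgeR) for the mean of AI and IVF against Control. It was -0.36 ± 0.37 (SE, edgeR) with the uterus as a block. Without Control 1, in the fit without the block, it turned to 0.07 ± 0.44 (SE, edgeR). That fit kept IVF 1 at 92.2 CPM, so it broke the pairing of uterus 1. Within uteri, IVF was below Control in uteri 1, 2, 3, 4 and 10. In uterus 5 it was above, at 52.8 against 18.5 CPM. The low ratio of this gene rests on uterus 1.

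ENSBTAG00000019124 had the next lowest ratio, 0.42, and was steadier. Its level was 22.8, 19.9, 12.9, 15.1, 16.8 and 14.8 CPM in Control 1, 2, 3, 4, 5 and 10. With IFNT it lay between 10.2 and 22.2 CPM, with a median of 13.3 CPM. The IFNT mean was 0.831 times the Control mean, near the lower limit of 0.8. IFNT was below Control in uteri 1, 3, 4 and 5 and above it in uteri 2 and 10. With AI it was 6.76, 8.22, 7.11 and 6.53 CPM in uteri 1 to 4, and all of these were below all Control and IFNT libraries. With IVF it had a median of 8.79 CPM, from 5.93 CPM in IVF 2 to 20.3 CPM in IVF 5, which reached the Control range. Its log2 fold change for the mean of AI and IVF was -0.90 ± 0.21 (SE, edgeR) against Control and -0.70 ± 0.21 (SE, edgeR) against IFNT, and -0.93 ± 0.20 and -0.73 ± 0.21 with the uterus as a block. The same libraries chose this gene for its low ratio, so these values describe it and support nothing.

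The most abundant member showed the pattern at a smaller size. Control libraries averaged 374 ± 60.9 CPM (SD, n = 6) and IFNT libraries 372 ± 41.6 CPM (SD, n = 6). Those with an AI conceptus averaged 271 ± 32.4 CPM (SD, n = 4), and those with an IVF conceptus 286 ± 44.3 CPM (SD, n = 7). AI libraries, from 229 to 304 CPM, lay below all Control libraries, from 311 to 466 CPM, and below all IFNT libraries, from 316 to 433 CPM. IVF libraries, from 232 to 347 CPM, overlapped both. Among the 8 most abundant members, each at 100 CPM or more in Control, the IFNT ratio to Control lay between 0.923 and 0.993 and the AI ratio between 0.636 and 0.723. Their IVF ratio lay between 0.59 and 0.796. In 7 of the 8 the AI mean was below the IVF mean. In the third of them it was above, at 150 ± 26.6 CPM with AI (SD, n = 4) and 126 ± 40.4 CPM with IVF (SD, n = 7), where the Control mean was 213 ± 83 CPM (SD, n = 6).

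The steepest ratios belonged to scarce members. The 4 lowest AI ratios, 0.12, 0.273, 0.307 and 0.331, came from members with Control means of 4.43, 4.92, 3.73 and 1.10 CPM. The member with the lowest AI ratio of all had a median of 2.66 CPM in Control (1.72 to 10.1 CPM) and 4.03 CPM with IFNT (1.43 to 11.8 CPM). It was at 0.0315, 0.774, 0.858 and 0.458 CPM in AI 1 to 4, which are 1 to 24 reads, and at a median of 1.33 CPM with IVF (0.526 to 3.73 CPM).

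**Figure D3:**
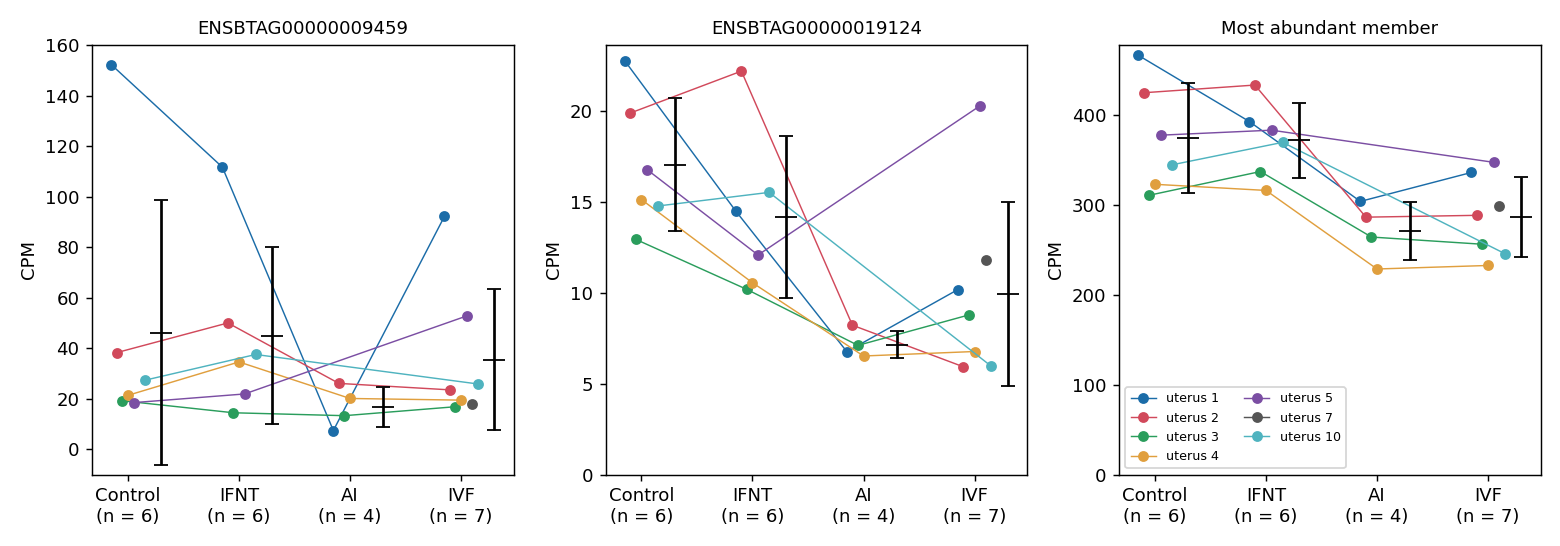
CPM of ENSBTAG00000009459, ENSBTAG00000019124 and the most abundant member in each library by group; lines join explants of 1 uterus and black marks give the group mean ± SD. The first gene is high in uterus 1, at 152 CPM in Control 1, while the others are lower in AI than in every Control and IFNT library.

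Few members separated the groups completely. In 33 of the 186, all 4 AI libraries lay below all 12 Control and IFNT libraries, where 0.714% of the 13451 genes did so. In 1 member all 7 IVF libraries did, where 0.0595% of the genes did so, and in the same member all 11 conceptus libraries did, where 0.0446% did. That member averaged 29.8 ± 5.38 CPM in Control (SD, n = 6), 27.1 ± 3.85 CPM with IFNT (SD, n = 6), 17.9 ± 2.83 CPM with AI (SD, n = 4) and 17.9 ± 2.33 CPM with IVF (SD, n = 7). Its 11 conceptus libraries lay between 15.4 and 22 CPM, and its 12 other libraries between 22.5 and 37.2 CPM. The rule used these libraries, so the counts describe the members and support nothing.

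Within uteri, IVF explants followed the same direction in all but uterus 5. Of the 186 members, 178, 182, 165, 171 and 171 were lower in the IVF than in the Control explant of uteri 1, 2, 3, 4 and 10, where 61.0%, 58.6%, 59.8%, 63.0% and 66.9% of all genes were. In uterus 5 the number was 103 (55.4%), where 58.0% of all genes were. Against the IFNT explant the numbers were 141, 176, 179, 170 and 172 in those uteri, where 48.2%, 52.8%, 59.0%, 45.6% and 65.2% of all genes were lower. In uterus 5 it was 80 (43.0%), where 53.5% of all genes were. IVF was below Control in every one of the 6 uteri in 69 members, where 15.9% of all 13451 genes were. It was below IFNT in every uterus in 45 members, where 4.25% of all genes were. IVF 5 was the highest IVF library for 89 members (47.8%), against 28.1% of all genes, and IVF 10 was the lowest for 79 (42.5%), against 22.7% of all genes. The rule set only the mean of the IVF libraries, and these counts describe how that mean came about.

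The AI explants were lower than the IVF explant of the same uterus in 140, 94, 116 and 145 members in uteri 1, 2, 3 and 4. The median log2 difference between AI and IVF was -0.23, -0.01, -0.10 and -0.21 in turn, where that of all genes lay between 0.02 and 0.07. AI was below IVF in all 4 uteri in 38 members, where 4.05% of all genes were. The rule held AI to a lower limit and every AI library below its uterus's Control and IFNT, which favours this direction, so these values describe the members and nothing is read from them. In uterus 2, a single pair of explants, the median difference was -0.01. The conceptuses there were 29 mm (AI) and 8 mm (IVF) long, and a bearing of length on this pair was not tested.

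The rule was also applied without all libraries of a uterus, and the genes it then chose were read in that uterus. Between 182 and 237 genes were chosen, of which 118 to 161 belonged to the 186. With AI the median log2 difference from Control was -0.64, -0.54, -0.29 and -0.45 in uteri 1, 2, 3 and 4. The medians over all genes there were -0.12, -0.06, -0.06 and -0.02. The chosen genes were below the median of all genes by 0.42 ± 0.13 against Control (SD, n = 4 uteri) and by 0.39 ± 0.04 against IFNT (SD, n = 4 uteri). They were lower with AI than in Control in 95.5%, 98.4%, 75.8% and 91.1% of cases, where 61.3%, 55.8%, 54.4% and 52.4% of all genes were. In every uterus with an AI explant, the genes chosen in the others were lower with AI than typical genes. The AI conceptuses all carry the same code, so these readings may not be independent of the choice. Nor are they independent of each other, since each uterus helped to choose the genes read in the others.

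The IVF explants gave the same direction in 5 of 6 left-out uteri. The median log2 difference from Control was -0.44, -0.56, -0.31, -0.39 and -0.41 in uteri 1, 2, 3, 4 and 10, and 0.06 in uterus 5. From IFNT it was -0.13, -0.36, -0.47, -0.23 and -0.53, and 0.15 in uterus 5. The chosen genes were below the median of all genes by 0.23 ± 0.20 against Control and by 0.22 ± 0.21 against IFNT (SD, n = 6 uteri). With IFNT the difference from Control went both ways, at -0.32, -0.17, -0.19 and -0.13 in uteri 1, 2, 4 and 5 and at 0.14 and 0.10 in uteri 3 and 10. It differed from the median of all genes by -0.01 ± 0.15 (SD, n = 6 uteri), less than the spread between uteri. The comparisons with Control share their Control explants, and those with IFNT their IFNT explants. The conceptuses of IVF 1 and IVF 2 share a code, as do those of IVF 3 and IVF 4, so these uteri may not be independent. Each left-out uterus also helped to choose the genes read in the others, so the readings behind each SD are not independent. No test was made on these medians.

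**Figure D4:**
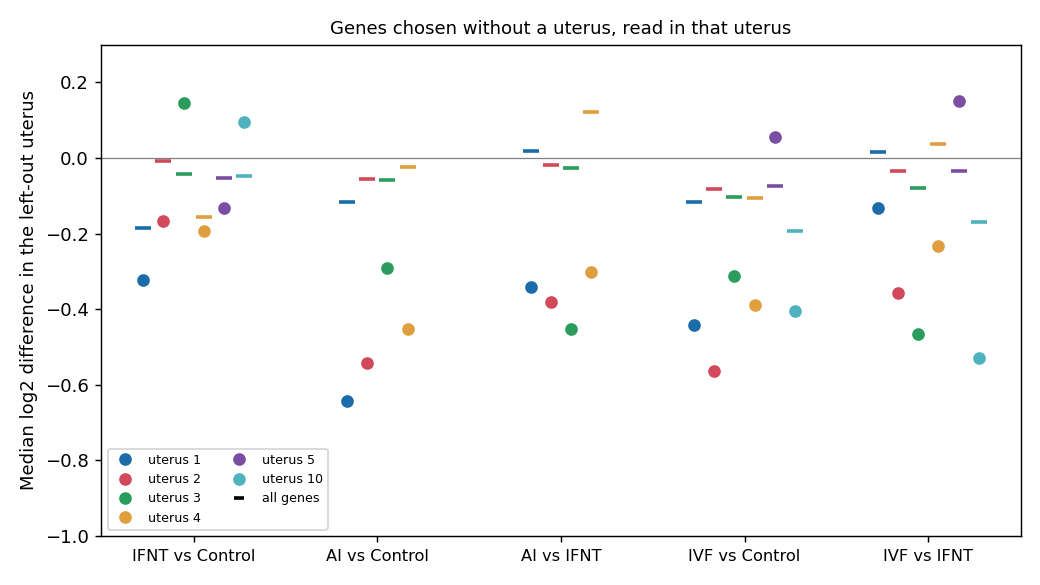
Median log2 difference in CPM, within a uterus, of genes chosen by the rule without that uterus; each circle is 1 left-out uterus and the dash of the same colour is the median of all genes there. Circles for AI lie below their dashes in 4 of 4 uteri, those for IVF in 5 of 6, with uterus 5 above, and those for IFNT scatter around theirs.

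In the negative binomial model of all 23 libraries (edgeR, Benjamini-Hochberg adjusted p under 0.05), 23 of the 186 members were called lower for the mean of AI and IVF against Control, where 0.919% of the 15227 genes tested were called lower. Against IFNT 0 members were called, where 0% of the genes were. At an unadjusted p under 0.05 stood 140 members against IFNT, where 1524 of the 15227 genes did in either direction. DESeq2 called 25 there, where 0.289% of genes were called lower. Against Control DESeq2 called 46, where 1.82% were. When the uterus entered as a block, 99 members were called lower by edgeR against Control, where 5.39% of genes were, and 96 lower against IFNT, where 2.21% were. The rule used these contrasts, so nothing is read from the shares. The fit with the block gives no weight to IVF 7, the only explant of its uterus. Without Control 1, the 23 became 10 and the 99 became 54. The 23 also became 14 without Control 2, 13 without Control 4, 15 without AI 4 and 39 without Control 10. The 96 became 25 without IFNT 3, 28 without IFNT 4, 51 without IFNT 10 and 48 without AI 4.

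With each origin set against Control, edgeR called 13 members lower for AI (0.407% of genes) and 8 for IVF (0.447% of genes), and 93 (3.77%) and 27 (2.23%) with the block. Against IFNT it called 0 for AI and for IVF (0% of genes), with 131 and 69 members at an unadjusted p under 0.05, where 9.82% and 5.69% of all genes were in either direction. DESeq2 called 4 (0.0394%) and 2 (0.0263%) there, and edgeR with the block 92 (2.04%) and 1 (0.00657%).

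Members' log2 fold changes against Control centred on -0.51 with AI and -0.33 with IVF, and against IFNT on -0.55 and -0.34. The median standard error of a member was 0.24 for AI and 0.20 for IVF. With the uterus as a block the medians against Control were -0.59 and -0.31. For IFNT against Control the median was 0.03, from -0.24 to 0.39, where the median of all genes was -0.01. For IFNT against Control edgeR called 0 members, where 0.144% of genes were called lower and 3.07% higher. At an unadjusted p under 0.05 stood 0 members and 8.80% of all genes. With the block it called 0, where 1.12% were called lower and 4.62% higher, and 1 member and 16.1% of all genes stood at an unadjusted p under 0.05. DESeq2 called 0, where 0.289% were called lower and 3.45% higher. The rule had confined this ratio.

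Conceptus sex and length had no part in the choice of members and could be tested. Each was fitted without the other, though they overlap. The IVF females were 8 and 19 mm long and the IVF males 14 to 54 mm, and the AI male was the shortest AI conceptus. Conceptuses with a common code may not be independent. Between male and female conceptuses, with origin in the model, 0 of the 186 members and 0% of all genes were called by edgeR, with or without the uterus block. The members' log2 differences, male minus female, had a median of 0.00, from -0.63 to 0.92, and 94 were above 0. A single member's difference had a median standard error of 0.25, so differences of that size were not detectable. At an unadjusted p under 0.05 stood 2 members (1.08%), against 3.03% of all genes, and the smallest adjusted p of a member was 0.982 (edgeR). DESeq2 called 0 members without the block and 0 with it, where 0.00657% of genes were called lower with it. With the block the edgeR median was 0.09, where all genes had -0.002, and 116 members were above 0. In that fit 8 members (4.30%) stood at an unadjusted p under 0.05, against 8.57% of all genes.

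Conceptus length ran from 8 to 54 mm. The slope on log2 length within origin was tested in the same way, and 0 members and 0% of all genes were called by edgeR. The slope had a median of 0.00 per doubling, from -0.53 to 0.90, with a median standard error of 0.16, and 94 of the 186 were above 0. At an unadjusted p under 0.05 stood 5 members (2.69%), against 2.73% of all genes, and DESeq2 called 0. With the uterus as a block 0 were called again, by edgeR and by DESeq2, where DESeq2 called 0.00657% of genes in each direction. In edgeR 18 members stood at an unadjusted p under 0.05 (9.68%, against 4.34% of all genes). There the slope was above 0 in 165 of the 186, with a median of 0.19 where all genes had -0.01. Members tended to vary together (median r 0.24 with group and uterus means removed), so these are not separate observations. The blocked fit gives no weight to IVF 7, the 54 mm conceptus, so its slope rests on lengths of 8 to 33 mm. Without IVF 5, a 33 mm conceptus, the blocked slope was above 0 in 126 members and its median was 0.08. No member passed the threshold for sex or length by any of these fits.

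Apart from treatment, the members differed between uteri about as much as other genes did. In the 12 Control and IFNT libraries, uterus accounted for a median of 75.2% of a member's variance in log2 CPM, against 70.7% for all genes. Over all 23 libraries it accounted for 36.1%, against 51.8% for all genes, and group for 38.5%, against 13.9%, where the rule fixed the group differences. The shares are not adjusted for the number of uteri or groups, so they are positive even where these do not differ. The coefficient of variation of a member had a median of 24.5% in Control, 24.6% with IFNT, 18.5% with AI and 26.7% with IVF. For all genes it was 24.0%, 26.9%, 19.6% and 25.1%. The spread within groups was thus similar for members and for other genes. Control 1 was the highest Control library for 84 members, against 19.2% of all genes, and Control 10 was the lowest for 79, against 16.0%. The Control libraries chose the members, and the pairwise condition covered uterus 1 but not uterus 10, which favours this order. These counts describe the members.

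The members tended to vary together between explants. With group and uterus means removed, the correlation between pairs of members over the 23 libraries had a median r of 0.24, and 75.4% of the 17205 pairs were above 0. For all genes the median was 0.03 and 52.6% were above 0. In the 12 Control and IFNT libraries, with group means removed, the median r was 0.21 for members and 0.05 for all genes. The rule chose the members in these same libraries and can itself favour a shared pattern. The points also share libraries and their depth, so the values only describe the members. Average-linkage clustering on those 12 libraries split the members into groups of 97 and 89, and the AI ratios of the groups were nearly equal, with medians of 0.648 and 0.652. The smaller group summed to more CPM than the larger in 4 of the 23 libraries: IFNT 3, IFNT 4, IVF 3 and IVF 4. The AI and IVF libraries had no part in the clustering. In IVF 3 the excess of the smaller group was slight, at 1718 against 1702 CPM. In AI 3 and AI 4, from the same uteri as IVF 3 and IVF 4, the larger group summed to more.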

How the data were processed

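RNA was sequenced from 23 endometrial explants with a stranded TruSeq mRNA kit, per the labels' protocols. The authors deposited read counts per Ensembl gene, whole numbers that are not normalized. HISAT2, StringTie, edgeR and the build UMD3.1 appear in the submitters' processing notes. Which tool counted the reads, with which annotation and strand setting, is not stated, so genes that overlap or have close copies may share reads. Columns were matched to samples by their descriptions. No pair of libraries agreed within sampling noise (lowest chi-square per degree of freedom 21.3 over 253 pairs).

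CPM is the count over the column total. Differences of log2 CPM used log2(CPM + 0.5). Counts were fitted in R 4.3.3 with edgeR 4.0.16 (filterByExpr, 15227 genes, TMM, quasi-likelihood test, all 23 libraries, Benjamini-Hochberg over all genes, threshold 0.05) and, as an alternative, DESeq2 1.42.0. The comparison of conceptus with Control was also run on simulated counts. These had the same spread for every gene, no difference between uteri, and changes larger than most members showed. That run therefore does not cover differences between uteri or changes of the members' size. Sex and log2 length entered beside the 4 groups.

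Titles give explants of different groups the same number, written U and called uterus here. Deviations from group means correlated in all 30 pairs of equal number (r 0.10 to 0.71, median 0.45) and had a median of -0.12 between numbers, so the numbers pair the explants. Where nothing says that explants of a group came from separate animals beyond this number, p-values measure the spread between explants. The model without uterus has 19 residual degrees of freedom and that with it 13.

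The members, gene lists and tests were chosen with earlier results of these data known. Gene lists, cell type markers and promoter motifs needed gene symbols and could not be applied. The rule for named genes therefore gave the 2 members with the lowest AI to Control ratio at a Control mean of at least 5 CPM. Other members were described by rank after their values were seen, and no sequence is shown.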

Additional observations from a re-analysis of the deposited data

Results flagged for a closer look

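Among 24 sets of values, each 1 quantity in 1 group of 4 to 7 libraries, 4 held a library far from the others by Dixon's test. Chance flags about 1 set in 20 where sets are not chosen by their values. These genes were chosen for extreme ratios, to which a single high library can contribute, so the 4 are not set against that rate. ENSBTAG00000009459 stood apart at 152 CPM in Control 1, where the next Control library had 38.3 CPM, and at 112 CPM in IFNT 1, where the next IFNT library had 50.05 CPM. ENSBTAG00000019124 stood apart at 20.3 CPM in IVF 5, where the next IVF library had 11.8 CPM. The member with the lowest AI to Control ratio stood apart at 3.73 CPM in IVF 7, where the next IVF library had 1.66 CPM.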

How the results depend on the processing

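The number of genes chosen by the rule was 93 with TMM-scaled and 110 with median-ratio CPM, where library totals gave 186. It ranged from 170 to 237 when the libraries of 1 uterus were left out. Members called against Control numbered 23 without the uterus, 99 with the replicate block, 46 in DESeq2, and 10 to 39 without single Control, AI or IVF libraries. Against IFNT they numbered 0, 96 with the replicate block, 25 in DESeq2, and 0 without each single IFNT, AI or IVF library. In the fits with the block, added after the data were seen, leaving out single libraries gave 54 to 137 against Control and 25 (without IFNT 3), 28 (IFNT 4), 48 (AI 4), 51 (IFNT 10) and up to 138 against IFNT. The causes were not tested. In the fits without the block, median-ratio size factors and no filter on low counts kept the numbers of members called within 1.5 times. For sex and length the number called was 0 in every alternative, and leaving out single conceptus libraries gave 0 to 0. For ENSBTAG00000009459 the log2 fold change against Control, without the block, ran from -1.04 without IVF 1 to 0.070 without Control 1. The sign reversed there, in a fit that kept the other libraries of uterus 1. The least abundant members rest on few reads, and with 4 AI explants small differences were not detectable.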
